A study of Homo sapiens with 15 samples.

Results

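The 10 genes described here encode AP-1 subunits and immediate early transcription regulators, namely FOS, FOSB, FOSL1, FOSL2, JUN, JUNB, JUND, ATF3, EGR1 and IER2. They were chosen by name from the 60558 genes of the table, and each name matched 1 gene. RNA was sequenced from RPE1-hTERT cells, an established line of telomerase-immortalized human retinal pigment epithelial cells, in 15 libraries that fall into 5 groups of 3. All groups, the control included, carry a doxycycline-inducible CCNE1 cDNA (cyclin E1) in the pINDUCER20 vector and descend from monoclonal cultures, so they represent 1 engineered line. Control cells had no doxycycline. Acute cells had 20 ng/ml doxycycline for 2 d, cells in proliferative crisis had it for 15, 18 and 18 d by their labels, and adapted cells for 39, 41 and 51 d. The labels of recovery cells give 31, 42 and 46 d of doxycycline, then 18, 46 and 17 d after its removal. Some labelled days run past the days that the paper's text gives for crisis, adapted and recovery cells, and the labels were used. Replicates were independent adaptations started weeks apart. The paper describes control as day 0, and no library came from untreated cells cultured as long as crisis, adapted or recovery cells. Time in culture and doxycycline exposure therefore cannot be told apart in those groups.

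AP-1 is a dimer of leucine zipper proteins in which a FOS family member pairs with a JUN family member, or JUN proteins pair with each other, while ATF proteins join in mixed dimers. FOS, FOSB, JUN, JUNB, EGR1, ATF3 and IER2 are textbook immediate early genes, which growth factors and stress switch on within minutes through ERK, JNK and p38 signalling and serum response factor, and whose mRNAs decay quickly. FOSL1 (FRA1) and FOSL2 (FRA2) lack the strong activation domain of FOS, follow more slowly, and persist in cycling cells under sustained ERK activity. EGR1 is a zinc finger factor and IER2 a nuclear protein, and neither is part of the AP-1 dimer. The comparison asks whether the level of these genes differed as cells met, endured and adapted to cyclin E overproduction.

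The sequences printed here, that of FOS aside, were each chosen for a response element. Through such elements immediate early genes are known to be switched on, or AP-1 and ATF dimers bind to them. That of FOS is printed for its TATA box, which is not such an element. RefSeq promoter windows on GRCh38.p14, which reach from 250 bases before to 50 bases after the annotated start, were matched for 9 of the 10 genes, ATF3 with 2 windows, and 100 bases of 6 of them are printed 5′ to 3′. The capitals mark the CArG boxes of EGR1, to which serum response factor binds, the AP-1 element (TGANTCA) of FOSL2, the CRE-like element (TGACATCA) of JUN and ATF3, the CRE (TGACGTCA) of JUND and the TATA box (TATAAA) of FOS. They lie at chr5:138465334-138465433 on the plus strand (EGR1), chr2:28392808-28392907 on the plus strand (FOSL2), chr1:58784061-58784160 on the minus strand (JUN), chr1:212565238-212565337 on the plus strand (ATF3), chr19:18281769-18281868 on the minus strand (JUND) and chr14:75278748-75278847 on the plus strand (FOS).
EGR1: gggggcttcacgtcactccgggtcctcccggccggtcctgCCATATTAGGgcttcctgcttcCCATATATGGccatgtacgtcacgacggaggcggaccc
FOSL2: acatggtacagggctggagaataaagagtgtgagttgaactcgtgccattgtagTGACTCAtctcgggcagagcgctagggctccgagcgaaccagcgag
JUN: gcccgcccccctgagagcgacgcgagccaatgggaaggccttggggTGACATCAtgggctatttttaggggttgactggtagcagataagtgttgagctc
ATF3: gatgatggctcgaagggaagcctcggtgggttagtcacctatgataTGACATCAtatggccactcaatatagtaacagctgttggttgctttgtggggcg
JUND: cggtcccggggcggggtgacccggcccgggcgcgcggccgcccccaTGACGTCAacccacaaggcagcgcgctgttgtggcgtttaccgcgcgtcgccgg
FOS: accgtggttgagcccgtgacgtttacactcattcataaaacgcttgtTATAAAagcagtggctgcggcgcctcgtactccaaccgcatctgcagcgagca

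Both strands were searched in full windows of 300 bases. The 2 CArG boxes of EGR1 begin 105 and 83 bases before its start, and 1.29% of all 35116 windows hold a CArG box. The AP-1 element of FOSL2 begins 5 bases into the transcript and is found in 7.71% of windows. TGACATCA begins 67 bases before the start of JUN and 123 bases before that of ATF3 (2.61% of windows), and TGACGTCA begins 200 bases before that of JUND (1.85% of windows). TATAAA begins 33, 31 and 30 bases before the starts of FOS, JUNB and FOSB, lies 230 bases before the second start of ATF3, and occurs in 11.5% of windows. The EGR sites GCGGGGGCG (5.07% of windows) and GCGTGGGCG (0.795% of windows) were found in 0 of the 10 windows, and IER2 held none of the elements searched. These letters are a description of the windows, not evidence of binding.

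The induction itself was checked first. CCNE1, a single entry that does not separate transgene from endogenous mRNA, was 136 to 163 TPM (a level scaled for transcript length and library total) in acute, 32.9 to 44.9 TPM in crisis, 42.6 to 43.3 TPM in adapted and 5.49 to 5.93 TPM in recovery libraries, against 6.27 to 7.88 TPM in control libraries. Markers of the labelled cell type were mixed. MITF and OTX2 reached 13.2 TPM or more in every library, whereas RPE65 was listed at 0 in every library and RLBP1, TYR, TYRP1, TTR and LRAT stayed at or below 0.565 TPM. KRT8, KRT18 and VIM were high (293 TPM or more), and the epithelial markers KRT19, EPCAM and CDH1 stayed at or below 0.643 TPM. The blood markers CD3E and HBB were listed at 0 in every library, and PTPRC and CD14 stayed at or below 0.255 TPM. The endothelial markers PECAM1, VWF and CDH5 stayed at or below 0.855 TPM. Of the neuronal markers, RBFOX3 stayed at or below 0.149 TPM, whereas SNAP25 was 5.09 to 10.5 TPM and TUBB3 100 to 183 TPM. Depth cannot be read from TPM and no counting error is given, and fewer expressing cells and less RNA per cell cannot be told apart in these bulk libraries.

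FOSL1 was by far the most abundant of the 10 genes, and FOS and FOSB, the classical induced members, were the lowest. Over the 15 libraries FOSL1 averaged 419.5 ± 50.4 TPM (SD), FOSL2 47.8 ± 3.598 TPM, JUN 43.97 ± 4.85 TPM, JUND 31.1 ± 3.54 TPM, IER2 24.0 ± 3.09 TPM and JUNB 12.1 ± 2.66 TPM. EGR1 averaged 4.27 ± 1.84 TPM, ATF3 1.26 ± 0.377 TPM, FOS 0.469 ± 0.249 TPM and FOSB 0.436 ± 0.184 TPM. FOSL1 stood at percentile 97.1 of the 10196 genes that averaged 5 TPM or more, FOSL2 at 71.2, JUN at 69.1, JUND at 58.6, IER2 at 49.5 and JUNB at 25.1. The other 4 genes were under this minimum, which is the one used for testing.

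The order of levels was clear for FOSL1 and not resolved for FOS and FOSB. FOSL1 exceeded FOSL2, and IER2 exceeded JUNB, with no overlap between any of the 15 libraries. JUN exceeded JUND, JUND exceeded IER2, JUNB exceeded EGR1 and ATF3 exceeded FOS in 15 of 15 libraries, although their ranges overlapped across libraries, and EGR1 exceeded ATF3 in 14. FOSL2 exceeded JUN in only 12 libraries and FOS exceeded FOSB in only 9, and the order of these neighbours was not tested.

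**Figure D1:**
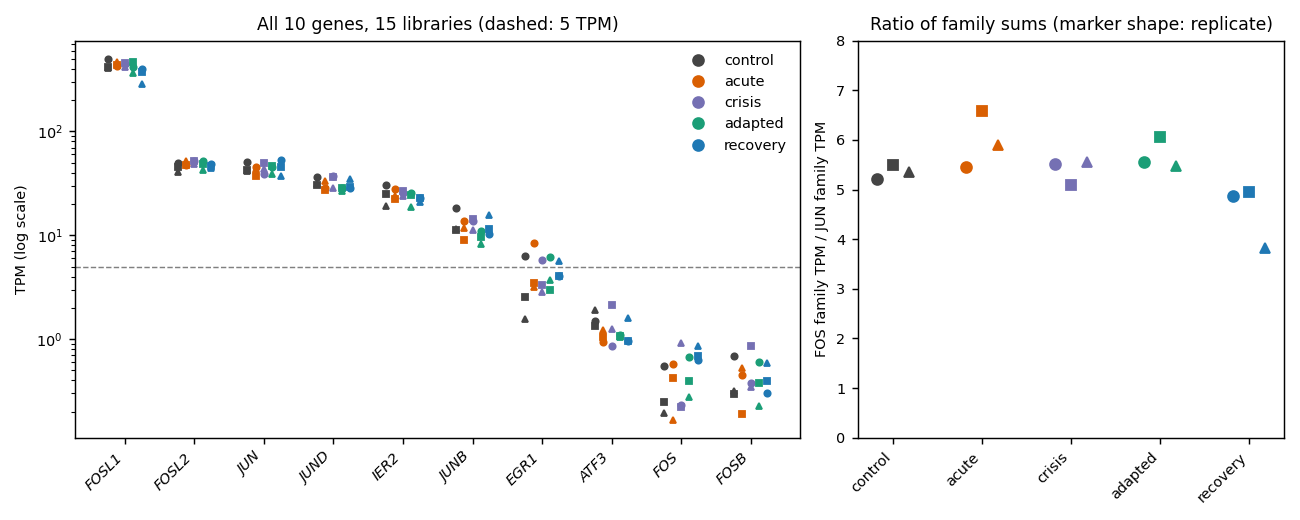
Level of the 10 genes in the 15 libraries on a log axis in TPM (left; each point is 1 library, coloured by group, the dashed line is the 5 TPM minimum), and the summed TPM of the FOS family divided by that of the JUN family in each library (right; marker shape gives the replicate). FOSL1 stands alone near 420 TPM, FOS and FOSB lie under 1 TPM in every library, and the recovery libraries have the lowest family ratios (3.82 to 4.95).

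FOSL1 therefore made up most of the FOS family mRNA. Its share of the summed TPM of the 4 FOS family genes was 86.3% to 90.9% across libraries, FOSL2 held 8.94% to 13.3%, and FOS and FOSB together held 0.113% to 0.433%. Of the 3 JUN family genes, JUN held 42.2% to 58.0% of the family sum, JUND 30.8% to 41.2% and JUNB 11.0% to 18.0%. The FOS family sum exceeded the JUN family sum 3.82 to 6.59 times.

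Differences between groups were tested with limma on log2(TPM + 1) for all 10196 genes, with calls made where the adjusted p (Benjamini-Hochberg) was under 0.01. This scale understates fold changes of genes near 0 TPM. Of the 6 genes tested (FOSL1, FOSL2, JUN, JUNB, JUND and IER2), limma called 0 in every comparison, against 0.049% of all tested genes in acute against control, 0.0392% in crisis against control, 0.049% in adapted against control, 0.0392% in recovery against control, 0.0196% when adapted was set against acute cells and 0.0294% when recovery was set against adapted cells. The 4 comparisons with control share the same 3 control libraries, and the last 2 share libraries with them too. A limma F test for any difference among the 5 groups also called 0 of these genes, against 0.0687% of all genes. Only FOSL1 had an unadjusted p under 0.05 in that test, against 17.1% of all genes. Its F test p was 0.049, with an adjusted p of 0.290 from limma. With calls this rare among all genes, a count of 0 among 6 is not a result particular to these genes.

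At an unadjusted p under 0.05, limma singled out 0 of the 6 genes in acute against control (9.19% of all tested genes), 0 in crisis against control (11.2%), 1 in adapted against control (JUNB; 20.4%), 1 in recovery against control (FOSL1; 28.6%), 0 in adapted against acute (6.26%) and 0 in recovery against adapted (7.04%). Over the 36 tests the fitted differences ran between −0.45 and 0.34 on the log2 scale, and the 95% intervals reached from −0.85 to 0.75. Both of those extremes belong to JUNB. The median difference of all 10 genes from control was −0.02 for acute, 0.04 for crisis, −0.07 for adapted and −0.05 for recovery cells, beside 0.06, 0.08, 0.05 and 0.08 for all tested genes, and −0.05 in adapted against acute and 0.05 in recovery against adapted, beside −0.02 and 0.03.

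**Figure D2:**
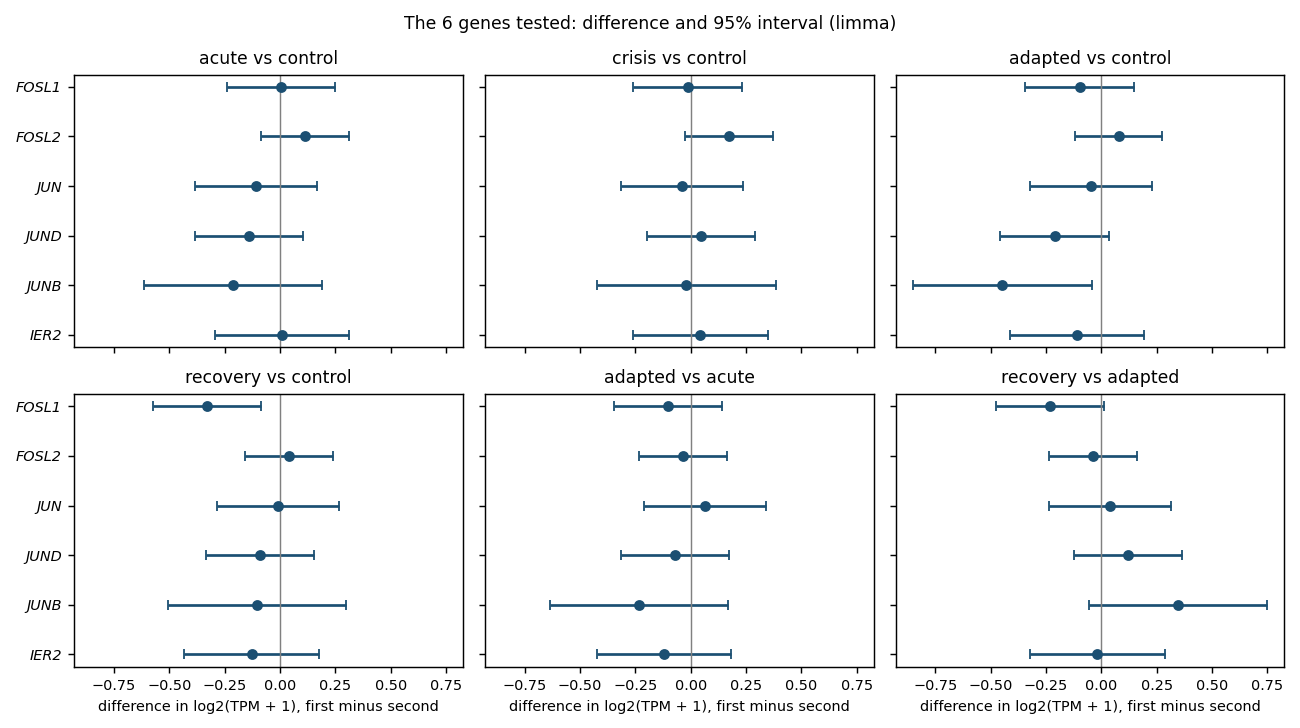
Difference in mean log2(TPM + 1) between the 2 groups named above each panel (first minus second, points) with its 95% interval from limma (bars), for the 6 genes tested. Intervals that leave out 0 are those of JUNB in adapted against control (−0.85 to −0.04) and FOSL1 in recovery against control (−0.58 to −0.09), neither of which passed the adjusted threshold.

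Whether the libraries of 2 groups overlapped was also counted for all 10 genes, beside the 17265 genes that averaged 0.4 TPM or more. The groups did not overlap for 1 gene in acute against control (ATF3; 12.1% of all such genes), for 3 in adapted against control (JUNB, JUND and ATF3; 20.7%) and for 2 in recovery against control (FOSL1 and FOS; 23.7%). They overlapped for all 10 in crisis against control (15.1% of genes did not overlap), in adapted against acute (11.7%) and in recovery against adapted (12.2%). For each of these 6 separations the exact 2-sided permutation test of 3 against 3 libraries gave p = 0.1, the smallest it allows, so it cannot reach 0.05.

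**Figure D3:**
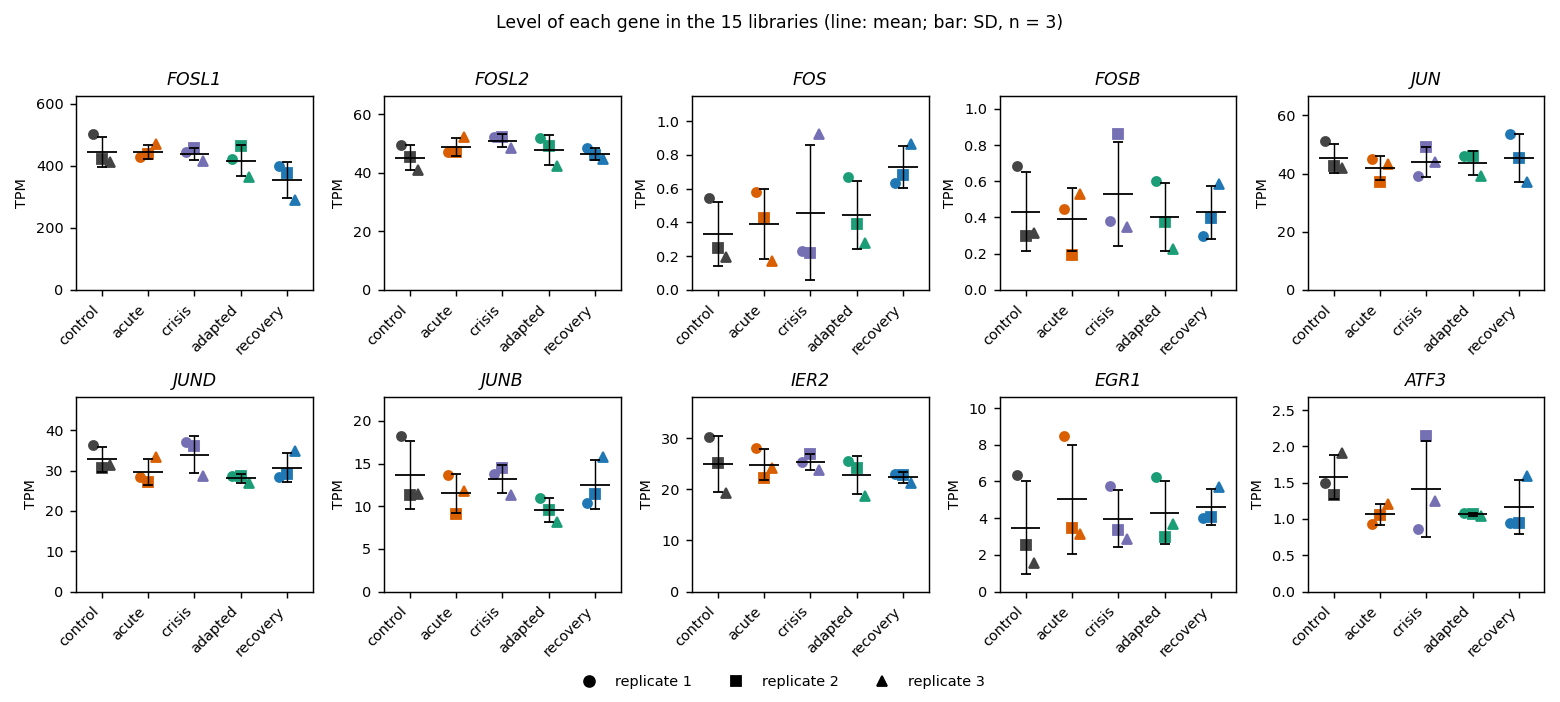
Level in TPM of each gene in every library, in 5 groups ordered from control to recovery; marker shape gives the replicate, horizontal lines the mean and bars the SD (n = 3). FOSL1 lies at 289 to 399 TPM in recovery, under the 412 to 501 TPM of control, JUNB at 8.16 to 11.0 TPM in adapted, under 11.3 to 18.2 TPM in control, and EGR1 is spread widely within every group.

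FOSL1 (ENSG00000175592, chr11:65892049-65900573, minus strand, hg38) is the AP-1 subunit most tied to sustained ERK signalling and to proliferating or invasive epithelial cells. It was 427, 437 and 469 TPM in acute libraries and 443, 456 and 417 TPM in crisis libraries, against 501, 420 and 412 TPM in control libraries. Adapted libraries had 421, 462 and 363 TPM and recovery libraries 399, 377 and 289 TPM. All recovery libraries were therefore below all control libraries, with a gap of 12.8 TPM, while the other groups overlapped with control.

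Recovery cells averaged 355 ± 58.2 TPM of FOSL1 and control cells 444 ± 49.1 TPM (SD, n = 3 each), so recovery was at 79.9% of control. The log2 difference was −0.33 (SE 0.12, 95% interval −0.58 to −0.09), with an unadjusted p of 0.0112 and an adjusted p of 0.0982 in limma. Recovery replicate 3 held the lowest value, and without it the difference was −0.19 (unadjusted p = 0.0920). After removal of the trend with GC content, described with the JUN genes, it was −0.18 (unadjusted p = 0.0677). Against adapted cells, which averaged 415 ± 50.1 TPM, the recovery difference was −0.23 (SE 0.12, interval −0.48 to 0.01, adjusted p = 0.725). In acute, crisis and adapted cells FOSL1 differed from control by 0.0042, −0.01 and −0.10, with intervals reaching from −0.34 to 0.25.

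FOSL2 (ENSG00000075426, chr2:28392448-28417317, plus strand) was the steadiest of the 10. Its residual SD within groups was 0.105 on the log2 scale, at percentile 18.6 of all tested genes, and its highest library exceeded its lowest by 1.28 times. Crisis libraries had 52.1, 52.3 and 48.6 TPM and control libraries 49.3, 45.3 and 40.9 TPM, which overlapped. Crisis was 0.17 above control (SE 0.09, interval −0.02 to 0.37, adjusted p = 0.499 in limma), the largest FOSL2 difference of the 6 comparisons.

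FOS (ENSG00000170345, chr14:75278826-75282230, plus strand), the founding AP-1 gene, was under 1 TPM in every library. It was 0.63, 0.68 and 0.87 TPM in recovery libraries, against 0.55, 0.25 and 0.20 TPM in control libraries. It was 0.578, 0.424 and 0.168 TPM in acute libraries, all under the recovery libraries, while crisis and adapted libraries overlapped with both recovery and control. The recovery mean of 0.726 ± 0.124 TPM was 220% of the control mean of 0.330 ± 0.189 TPM (SD, n = 3 each). FOS was below the minimum for testing, and with the minimum dropped limma gave a difference of 0.38 with an unadjusted p of 0.0675 and an adjusted p of 0.470.

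FOSB (ENSG00000125740, chr19:45467995-45475179, plus strand), a close relative of FOS, was 0.191 to 0.859 TPM over the 15 libraries, and its groups overlapped in all 6 comparisons. Its differences lay between −0.04 and 0.09. ERCC1 overlaps FOSB on the opposite strand, and no source used here states how the quantification treated strand, so reads of the pair may not be separated.

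The 3 JUN genes are the partners without which FOS proteins cannot form AP-1. JUN (ENSG00000177606, chr1:58776845-58784048, minus strand) varied between 37.0 and 53.4 TPM, its groups overlapped in every comparison, and its differences lay between −0.11 in acute against control and 0.06 in adapted against acute, with intervals from −0.39 to 0.34. JUNB (ENSG00000171223, chr19:12791486-12793315, plus strand), which can restrain JUN activity, had 11.0, 9.59 and 8.16 TPM in adapted libraries, against 18.2, 11.3 and 11.4 TPM in control libraries. JUND (ENSG00000130522, chr19:18279694-18281622, minus strand), the JUN gene least tied to acute stimulation, had 28.7, 28.7 and 26.9 TPM in adapted libraries, against 36.3, 30.7 and 31.4 TPM in control libraries. For both, all 3 adapted libraries were below all 3 control libraries, by 0.371 TPM for JUNB and 1.95 TPM for JUND.

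JUNB averaged 9.57 ± 1.40 TPM in adapted and 13.7 ± 3.95 TPM in control cells (SD, n = 3 each), a log2 difference of −0.45 (SE 0.19, interval −0.85 to −0.04, unadjusted p = 0.0316, adjusted p = 0.205 in limma). Control replicate 1 held 18.2 TPM, and without it the difference was −0.24 (unadjusted p = 0.221). In recovery libraries JUNB was 10.4, 11.4 and 15.8 TPM, which overlapped with adapted, at a difference of 0.34 (SE 0.19, interval −0.06 to 0.75, adjusted p = 0.756). JUND averaged 28.1 ± 1.05 TPM in adapted and 32.8 ± 3.06 TPM in control cells, a difference of −0.21 (SE 0.12, interval −0.46 to 0.03, adjusted p = 0.295). HOOK2 overlaps JUNB on the opposite strand, as FOSL2-AS1 does FOSL2.

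GC content moved with these values. JUND (69.9% GC), JUNB (64.9%) and IER2 (63.0%) lie far above the median of 48.4% of tested genes. FOSL1 (60.1%), FOSL2 (56.5%) and JUN (56.1%) lie above this median too. Across 10185 genes, Spearman's rho between GC content and the difference from control was −0.54 for acute cells, −0.33 for crisis, −0.67 for adapted and −0.69 for recovery, given without a p because genes do not count as replicates. After a smooth curve over GC content was subtracted in each library, adapted minus control was −0.17 for JUNB (unadjusted p = 0.333) and 0.17 for JUND (unadjusted p = 0.146). Recovery minus control was then 0.33 for JUND (unadjusted p = 0.00789, adjusted p = 0.178), beside −0.09 before. The direction of the JUND difference from control in acute, adapted and recovery cells thus depends on this correction, and whether GC content caused them was not tested.

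**Figure D4:**
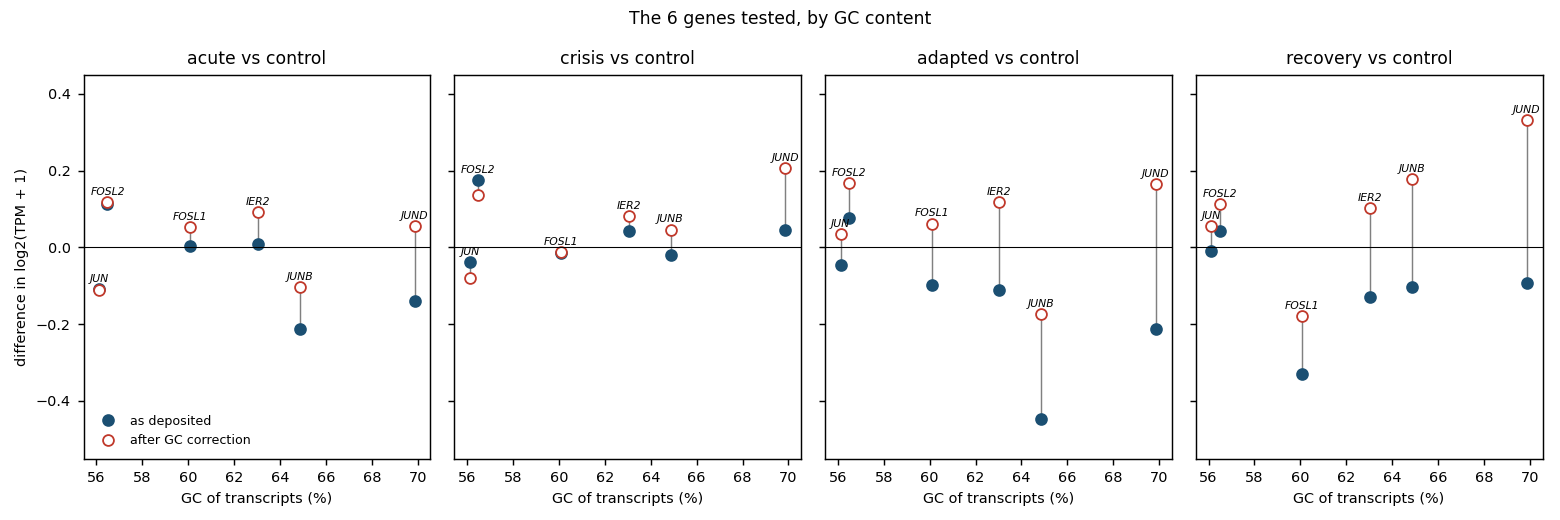
Difference from control in mean log2(TPM + 1) (vertical axis) against the GC content of the gene's transcripts in percent (horizontal axis) for the 6 genes tested, with deposited values (filled) and after the GC trend was removed from each library (open). In adapted cells JUND moves between −0.21 and 0.17. JUNB in adapted (−0.45 and −0.17) and FOSL1 in recovery (−0.33 and −0.18) stay below 0, with a smaller difference after the correction.

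The ratio of FOS to JUN family levels is given as a description, and FOSL1 makes up most of the FOS sum. FOS family TPM divided by JUN family TPM was 4.87, 4.95 and 3.82 in recovery libraries, against 5.22, 5.50 and 5.36 in control libraries. Adapted libraries had 5.55, 6.06 and 5.47, and recovery was below both groups without overlap. The log2 difference was −0.25 against control and −0.33 against adapted cells, each with an exact 2-sided permutation p of 0.1, the smallest that 3 against 3 libraries allow. After the GC correction the same differences were −0.33 and −0.36, and without recovery replicate 3 they were −0.13 and −0.21. This ratio was examined after its values were seen.

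IER2 (ENSG00000160888, chr19:13150411-13154911, plus strand) was 18.6 to 30.3 TPM, and its groups overlapped in all comparisons. Its largest difference was −0.13 in recovery against control (SE 0.14, interval −0.43 to 0.17, adjusted p = 0.559 in limma), and the GC correction gave 0.10 for it. The annotation has 2 genes that overlap IER2 on the opposite strand. ATF3 (ENSG00000162772, chr1:212565334-212620777, plus strand), a stress-induced partner of JUN proteins, was 0.93, 1.05 and 1.21 TPM in acute libraries and 1.09, 1.06 and 1.04 TPM in adapted libraries, against 1.49, 1.34 and 1.91 TPM in control libraries. Both groups were below control without overlap, at 67.3% and 67.4% of its mean. With a minimum of 1 TPM, limma gave −0.32 for each (unadjusted p = 0.114 and 0.117, adjusted p = 0.626 and 0.368).

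EGR1 (ENSG00000120738, chr5:138465479-138469303, plus strand) was the most variable within groups on the log2(TPM + 1) scale. In TPM its highest library exceeded its lowest 5.39 times, and that of FOS 5.48 times. Its residual SD within groups was 0.544 on the log2 scale, at percentile 99.3 of tested genes, where the median was 0.149. It had 8.47, 3.44 and 3.16 TPM in acute libraries, 5.74, 3.34 and 2.86 TPM in crisis libraries and 6.24, 2.95 and 3.70 TPM in adapted libraries. Recovery libraries had 4.01, 4.04 and 5.71 TPM and control libraries 6.34, 2.55 and 1.57 TPM. Replicate 1 was thus the highest in all groups but recovery, and every group overlapped with control. Acute minus control was 0.46, and leaving out 1 library at a time gave 0.08 to 0.89. With a minimum of 1 TPM, limma gave it an unadjusted p of 0.234 and an adjusted p of 0.713. Other members with a wide spread were JUNB (percentile 93.6), FOS (88.6), ATF3 (85.0) and FOSB (80.3), the last 3 at levels where the added 1 of the log scale compresses differences.

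No relation between FOS and the other 9 genes passed a test. Over the 15 libraries, which include group differences, Pearson's r with FOS on log2(TPM + 1) ran from −0.44 for FOSL1 (permutation p = 0.0952, adjusted p = 0.474; Spearman's rho −0.46, permutation p = 0.0828, adjusted p = 0.590) to 0.44 for EGR1 (permutation p = 0.105, adjusted p = 0.474; rho 0.41, permutation p = 0.131, adjusted p = 0.590). Adjustment was over the 9 pairs, and 0 of them had an unadjusted permutation p under 0.05 for either coefficient. Without the 2 libraries farthest from the FOS median, r was −0.19 for FOSL1 and 0.60 for EGR1. Within groups, r was −0.10 for FOSL1 and 0.41 for EGR1 (exact permutation p = 0.681 and 0.192). At under 1 TPM the values of FOS are sparse, and these coefficients carry little weight.

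Genes most like 3 of the members over the 15 libraries are given as a description. For FOS they were PNPLA8, USP48, BCHE, PRPF3 and VPS13A (r 0.80 to 0.85), and after the GC correction r was 0.22 to 0.67. For FOSL1 they were LMNB2 (lamin B2), TUBB4B (a beta tubulin), HMGA1 (a chromatin protein abundant in proliferating cells), SLC25A10 and CDCA5 (sororin, which protects sister chromatid cohesion), with r of 0.95 to 0.96 before and 0.70 to 0.91 after the correction. For EGR1 they were TSTD2, KLF6, SCARNA9, HDAC6 and AL160408.2 (r 0.72 to 0.86). KLF6 is itself an immediate early gene. The 5 names were the highest of all tested genes, and libraries share group and GC differences.

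Of 44 other immediate early genes, 34 were tested, limma called 0 in every comparison, and 10 had an unadjusted F test p under 0.05, where 17.1% of all genes had. In adapted against control, 7 of the 34 had an unadjusted p under 0.05 and were lower, where 9.01% of all genes were, and the median was −0.10, beside 0.05 for all genes. In recovery against adapted, 7 of the 34 had such a p and were higher, where 4.98% of all genes were, and the median was 0.10, beside 0.03. After the GC correction these counts were 7 and 9, where 7.40% and 5.36% of all genes were. The median in adapted against control was then −0.0032, beside 0.0026 for all genes, and 4 of the 34 were lower in recovery against adapted at such a p. The 2 comparisons share the adapted libraries, so a low adapted value enters both. In recovery against control, on the deposited values, 6 of the 34 were higher and 5 lower at such a p. Of all genes, 19.7% were higher and 8.88% lower in that comparison, and the list median was 0.01, beside 0.08.

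DUSP1, the phosphatase that switches off ERK, JNK and p38, was 18.9, 20.0 and 24.7 TPM in recovery libraries, against 13.01, 12.2 and 13.6 TPM in adapted libraries, without overlap. The difference was 0.66 (SE 0.13, adjusted p = 0.0810 in limma), and 0.65 after the GC correction. Control libraries had 20.3, 16.7 and 15.5 TPM of DUSP1, which overlapped with recovery (recovery minus control 0.26, adjusted p = 0.187 in limma). All adapted libraries were below all control libraries for DUSP1 (difference −0.40, adjusted p = 0.119 in limma). MCL1, an anti-apoptotic protein of short half-life, was 97.2, 93.1 and 106 TPM in recovery and 75.1, 83.4 and 70.5 TPM in adapted libraries, a difference of 0.37 (SE 0.09, adjusted p = 0.243). Control libraries had 88.5, 78.2 and 86.9 TPM of MCL1. Its recovery difference from control was 0.22 (adjusted p = 0.132 in limma), and 0.07 after the GC correction. ID2, an inhibitor of basic helix-loop-helix factors, went the other way, with 9.57, 10.8 and 10.4 TPM in recovery libraries, against 17.0, 17.2 and 17.2 TPM in adapted and 11.4, 18.1 and 19.7 TPM in control libraries. Its recovery difference from control was −0.60 (SE 0.16, adjusted p = 0.0631).

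The dimer partners and the kinases upstream were tested as well. Of 28 partner and related bZIP factors, 21 were tested, 0 were called by limma in any comparison, and 3 had an unadjusted F test p under 0.05, where 17.1% of all genes had. Genes of both lists are named for having the smallest F test p. BATF3, which pairs with JUN proteins, had the smallest, at 4.11, 5.03 and 5.83 TPM in acute and 5.44, 5.11 and 4.15 TPM in adapted libraries, against 9.48, 10.1 and 9.60 TPM in control libraries. All acute and adapted libraries were below all control libraries, and the differences were −0.85 (SE 0.16, adjusted p = 0.0690) and −0.87 (SE 0.16, adjusted p = 0.0287), short of the threshold of 0.01. Crisis (5.18 to 6.94 TPM) and recovery libraries (4.84 to 7.64 TPM) were below all control libraries too. Their differences were both −0.57 (adjusted p = 0.228 and 0.0678 in limma). DDIT3 (CHOP), a factor of the integrated stress response, was 23.2, 25.0 and 24.8 TPM in adapted and 17.5, 18.0 and 16.3 TPM in control libraries (difference 0.47, SE 0.12, adjusted p = 0.0742). In acute, crisis and recovery cells it was 0.04, 0.38 and 0.44 above control (adjusted p = 0.935, 0.286 and 0.0672 in limma). ATF5 differed by −0.45 in adapted against control cells (adjusted p = 0.0912), or −0.24 after the GC correction. Its acute, crisis and recovery differences were −0.33, −0.37 and −0.33. Of 37 upstream kinases and factors, 32 were tested, 0 were called and 3 had an unadjusted F test p under 0.05, again where 17.1% of all genes had, namely RPS6KA4, MAP2K1 and MAP2K2, the last 2 being the kinases that activate ERK. Their adapted differences from control were −0.38, −0.21 and −0.23 (adjusted p = 0.116, 0.2004 and 0.237 in limma), and −0.11, −0.24 and −0.05 after the GC correction. Their recovery differences from control, on the deposited values, were −0.37, 0.03 and −0.25.

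Of 32 textbook AP-1 target genes, 23 were tested, limma called 0 on the deposited values, and 11 had an unadjusted F test p under 0.05, where 17.1% of all genes had. In adapted against control, 8 of the 23 were lower at an unadjusted p under 0.05, beside the 9.01% of all genes given above, and in adapted against acute 6 were, where 4.89% of all genes were. In recovery against adapted 6 were higher at such a p. The median was −0.16, −0.17 and 0.14, beside 0.05, −0.02 and 0.03 for all genes. After the GC correction these counts were 8, 6 and 6, where 7.40%, 3.56% and 5.36% of all genes were, with medians of −0.14, −0.08 and 0.09, and 2 of the 23 were higher in adapted than in control cells at such a p. With median-of-ratios scaling 12 were lower in adapted against control, where 13.1% of all genes were. In crisis against control, on the deposited values, 4 of the 23 were lower and 3 higher at such a p. Of all genes, 1.83% were lower and 9.32% higher in that comparison, and the list median was −0.0049, beside 0.08. In recovery against control, on the deposited values, 7 of the 23 were lower and 3 higher at such a p. Of all genes, 8.88% were lower and 19.7% higher there, and the median of the list was 0.01, beside 0.08. The 3 comparisons with adapted cells share the adapted libraries, so a low adapted value enters each of them.

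**Figure D5:**
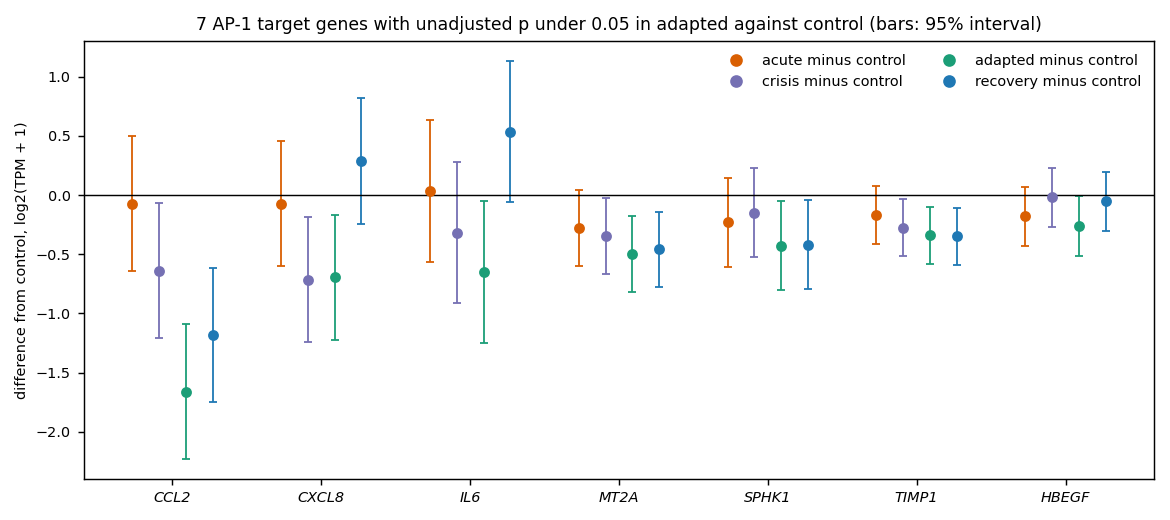
Difference from control in mean log2(TPM + 1), with its 95% interval from limma, for 7 of the 8 AP-1 target genes that had an unadjusted p under 0.05 in adapted against control, shown in acute, crisis, adapted and recovery cells. CCL2 has the largest adapted difference (−1.66), and CXCL8 and IL6 lie below 0 in adapted (−0.69 and −0.65) and above 0 in recovery (0.29 and 0.54). CCL2 (−1.18), MT2A (−0.46), SPHK1 (−0.42), TIMP1 (−0.35) and HBEGF (−0.05) lie below 0 in recovery too. In crisis CXCL8 (−0.72), CCL2 (−0.64), MT2A (−0.34), IL6 (−0.32), TIMP1 (−0.27), SPHK1 (−0.15) and HBEGF (−0.02) lie below 0.

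CCL2, a monocyte-attracting chemokine, was 2.32, 2.25 and 6.98 TPM in adapted libraries, against 15.6, 10.7 and 12.9 TPM in control libraries, without overlap, a difference of −1.66 (SE 0.27, adjusted p = 0.0128 in limma). After the GC correction it was −1.77 with an adjusted p of 0.0099 in limma, and CCL2 was then the 1 target gene called in adapted against control, where 0.147% of all genes were. Crisis libraries had 8.43, 7.67 and 7.82 TPM of CCL2, below all control libraries too (difference −0.64, adjusted p = 0.401 in limma). In recovery libraries CCL2 was 4.33, 4.36 and 7.16 TPM, also below all control libraries (difference −1.18, adjusted p = 0.0440 in limma). CXCL8, a neutrophil-attracting chemokine, was 217, 189 and 180 TPM in adapted libraries, against 445, 252 and 282 TPM in control libraries (difference −0.69, SE 0.25, adjusted p = 0.153), and 365, 303 and 523 TPM in recovery libraries. In crisis libraries CXCL8 was 208, 181 and 188 TPM, below all control libraries as well (difference −0.72, adjusted p = 0.327 in limma). CCL2, CXCL8 and IL6 are also targets of NF-κB, so the list is not specific to AP-1. Of the other genes among the 8, those named here, after their values were seen, were MT2A (a metallothionein), SPHK1 (sphingosine kinase), TIMP1 (an inhibitor of metalloproteinases) and HBEGF (an EGF receptor ligand, also on the list of immediate early genes), with adapted differences of −0.50, −0.43, −0.34 and −0.26. After the GC correction SPHK1 was at −0.15 (unadjusted p = 0.327). In recovery cells the deposited differences of MT2A, SPHK1, TIMP1 and HBEGF from control were −0.46, −0.42, −0.35 and −0.05. In crisis cells the same differences were −0.34, −0.15, −0.27 and −0.02. ITGA2, a collagen receptor subunit, was instead 41.2, 34.4 and 33.0 TPM in acute libraries, against 19.9, 21.6 and 26.2 TPM in control libraries (difference 0.66, SE 0.14, adjusted p = 0.112).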

How the data were processed

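RNA-seq of 15 libraries was analysed. The authors quantified reads with Kallisto 0.44.0 on hg38, and their deposited values are TPM for 60603 entries, of which 45 pseudoautosomal copies were dropped. The log2 fold changes and adjusted p-values that the authors obtained with DESeq2 are also deposited, and neither they nor sheets repeating them were used. Every value column had a sample (0 columns were left out), assigned by the labels. Stable identifiers were matched to GENCODE release 44 on hg38 for position, strand and GC content.

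Values were transformed to log2(TPM + 1), and the 10196 genes averaging 5 TPM or more were fitted with limma 3.58.1 in R 4.3.3 (5 groups, eBayes with a trend, Benjamini-Hochberg adjustment, 2-sided, called under 0.01). The fit was tested on simulated data. Correlations used 100000 permutations, and single comparisons exact permutation (scipy 1.17.1).

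The members and lists were chosen with earlier results of these data known. The text names all 10 members, CCNE1, of each list the called genes or else the 3 with the smallest F test p, and the 5 genes most like FOS; genes like FOSL1 and EGR1, the family ratio and the list alternatives were added after seeing the data. Alternatives were other pseudocounts (0.1 and 5), filters and scalings, GC correction by loess (span 0.3), a replicate block, no trend, a threshold of 0.05, the 6 libraries compared alone, and each library left out. For the AP-1 target list, 1 gene is counted but not reported here.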

Additional observations from a re-analysis of the deposited data

How the results depend on the processing

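Limma called 0 of the 6 tested genes in every comparison, and by the F test, under each alternative run, a threshold of 0.05 included. Directions were less stable. With the GC correction, with or without the replicate block, the difference from control was 0.062 for FOSL1 and 0.17 for JUND in adapted cells and 0.10 for IER2 in recovery cells, the reverse of the deposited values, and the median of the 10 genes was 0.10 in adapted and 0.11 in recovery cells. FOSL1 in acute against control was −0.064 with median-of-ratios scaling and −0.043 without rRNA-locus RNA, which made up 5.89% to 13.8% of TPM per library. Leaving out 1 library at a time gave −0.047 to 0.093 for FOSL1 in acute, −0.066 to 0.075 for FOSL1 in crisis and −0.29 to 0.019 for IER2 in recovery against control, −0.017 to 0.14 for JUN in adapted against acute, and medians of the 10 genes of −0.13 to 0.09 in acute, −0.05 to 0.19 in crisis, −0.12 to 0.04 in adapted and −0.09 to 0.09 in recovery against control and −0.10 to 0.01 in adapted against acute, so these signs depend on single libraries. FOSL1 in recovery against control lay between −0.42 and −0.19, and JUNB in adapted against control between −0.56 and −0.24.

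FOS in recovery against control was 1.02 with a pseudocount of 0.1 and 0.10 with one of 5, since 1 exceeds its level. Percentiles of spread with a pseudocount of 5 were 3.72 for FOS, 1.39 for FOSB, 12.4 for ATF3, 75.1 for FOSL1 and 77.8 for JUN, and with the GC correction 8.42 for FOSL2 and 63.2 for JUND. Pearson's r of FOS with the GC correction was 0.42 for FOSL2 and 0.45 for JUND, reversed in sign (adjusted permutation p = 0.282 and 0.277). Causes were not tested.

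Replicate numbers were shared by the groups, but the correlation of same-numbered deviations was −0.44 to 0.34 and did not exceed 0.1 for all 3 numbers in any comparison, so the numbers were not used as pairs. The replicate block called 0 genes as well, with an adjusted p of 0.195 for JUNB in adapted and 0.0769 for FOSL1 in recovery against control. The depth behind each value is unknown, so the counting error of the 4 genes under 5 TPM is unknown too.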
